A study of Homo sapiens with 49 samples.

Results

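The genes described here encode the heat shock chaperones HSP90AA1, HSP90AB1, HSPA8, HSPH1, HSPD1 and HSPE1 and the co-chaperones FKBP4, STIP1, AHSA1 and DNAJA1. They were chosen by name, with earlier results of these data known, as 10 of the 23621 genes in the tables. All 10 passed the filter on low values in both cell models. RNA was measured in 2 human neuroblastoma cell lines. In SHEP-21N cells the oncogene MYCN is driven from a TET-off construct that doxycycline (0.2 µg/ml) silences, and RNA was taken at 0 h (2 libraries) and after 2, 4, 6, 8, 16 and 24 h (3 libraries at each time). In BE(2)-C cells doxycycline (0.5 µg/ml) switches on a TET-on short hairpin RNA that targets the transcription factor TWIST1, and RNA was taken before doxycycline and after 3, 6, 12, 24 and 48 h, again 3 libraries at each time. All libraries of 1 model carry the same construct, and no doxycycline-treated cells lacking the construct were analysed here, so effects of doxycycline itself cannot be told apart from those of the targeted gene. Per the labels, the 8, 16 and 24 h SHEP-21N libraries carry the same index sequences as those of 0, 2 and 4 h; whether all were sequenced together is not stated. The labels do not say that the libraries of a group came from separate cultures, so the p-values measure the spread between these libraries, which may be technical.

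Heat shock proteins help other proteins to fold. In the cytosol, HSP70 proteins and their J-domain partners bind unfolded clients and pass some of them to HSP90, with co-chaperones that dock, hand over or time the release of the client; kinases and steroid receptors are well-known HSP90 clients. In mitochondria, HSP60 forms a barrel that encloses a protein for folding, closed by HSP10. The transcription factor HSF1 switches many of these genes on under stress by binding heat shock elements, repeats of the short unit GAA in alternating direction. MYC family proteins, MYCN among them, bind E-boxes, of which CACGTG is the canonical form, as partners of MAX.

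Promoter sequences are shown because the members differ in which of these elements lie next to their starts. They come from RefSeq (GRCh38.p14), whose table held 15 windows, from 250 bases before to 50 after a start, for 9 of the 10 genes; FKBP4 had none. The files themselves use hg19, so these positions belong to GRCh38 alone. HSPD1 and HSPE1 lie head to head, and the 104 bases between their starts (chr2:197500275-197500378, HSPE1 strand, 5′ to 3′) hold 1 CACGTG, in capitals. It begins 22 bases before the start of HSPE1 and, read on the other strand, 88 bases before that of HSPD1.

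HSPD1/HSPE1 intergenic: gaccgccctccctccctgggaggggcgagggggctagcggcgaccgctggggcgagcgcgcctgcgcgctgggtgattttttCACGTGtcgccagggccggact

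CACGTG was found in the windows of these 2 genes and in 8.77% of all 27305 genes in the table. The search for abutting heat shock units read GAANNTTC and TTCNNGAA on both strands; both are palindromes, and neighbouring matches can overlap. At least 1 of them lay in a window of HSP90AA1, HSP90AB1, HSPA8, HSPD1, DNAJA1 and STIP1, that is in 6 of 9 members, against 16.2% of all genes. Counted by window, 6 of the 15 held a match, against 13.5% of all windows. The HSPD1 matches lie only in the window of another start (chr2:197499840), not of the start facing HSPE1. The STIP1 match begins 13 bases after a start. The stretches below show, in capitals, the units that lie within them for HSP90AA1 (chr14:102087045-102087194, minus strand), HSPA8 (chr11:123062137-123062286, minus strand), both ending just before the start, and DNAJA1 (chr9:33025023-33025172, plus strand), where the unit shown begins 198 bases before the start. DNAJA1 has further matches 3 and 8 bases after its start, and HSPA8 further matches 230 and 225 bases before its start, outside the stretches shown. A match is a string of letters and not a measured binding site.

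HSP90AA1: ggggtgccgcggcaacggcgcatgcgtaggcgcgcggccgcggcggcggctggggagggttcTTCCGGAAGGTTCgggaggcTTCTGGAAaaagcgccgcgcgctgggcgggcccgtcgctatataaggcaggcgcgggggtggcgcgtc

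HSPA8: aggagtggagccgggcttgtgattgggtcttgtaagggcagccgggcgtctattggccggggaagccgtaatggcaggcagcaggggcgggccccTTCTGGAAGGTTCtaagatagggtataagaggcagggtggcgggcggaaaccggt

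DNAJA1: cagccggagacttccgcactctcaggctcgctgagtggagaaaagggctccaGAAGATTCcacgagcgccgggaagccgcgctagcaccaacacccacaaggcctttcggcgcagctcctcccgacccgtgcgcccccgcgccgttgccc

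Values are FPKM, fragments per kilobase of transcript and per unit of library size, given as the authors deposited them in an unnormalized form and in a form rescaled to ERCC spike-in RNA added per cell number. In such bulk samples less RNA per cell and fewer cells than counted cannot be told apart. Fold changes are differences of log2(FPKM + 1) with their standard error, and a gene is called changed where limma's p, adjusted by Benjamini and Hochberg over 11867 genes in SHEP-21N or 11433 in BE(2)-C cells, is under 0.05. The number of reads is not known; the steps between low values showed that the deepest library held 1.98 times the reads of the shallowest in SHEP-21N and 1.38 times in BE(2)-C cells. MYCN stood at 715 and 742 unnormalized FPKM at 0 h and between 15.4 and 15.6 at 24 h, and TWIST1 fell from between 57.9 and 74.6 to between 17.7 and 18.9 at 48 h, as the labels say. All 7 mesenchymal neuroblastoma markers reached a mean of 1 FPKM in SHEP-21N cells and 2 of 7 adrenergic ones, with TH at a median of 0; in BE(2)-C cells all 7 adrenergic and 2 of 7 mesenchymal markers did. Of 12 epithelial, blood and glial markers none did so in SHEP-21N and 3 in BE(2)-C cells. The BE(2)-C 3 h library numbered 1 held haemoglobin RNA (HBB at 38.4 FPKM), seen above 1 FPKM in no other library.

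The members spanned a wide range of levels before doxycycline. In SHEP-21N cells at 0 h, HSPA8, the constitutive cytosolic HSP70, was highest with a mean of 1957 unnormalized FPKM. HSP90AB1, the constitutive HSP90, followed at 1536 and the mitochondrial partners HSPE1 and HSPD1 at 542 and 532, whose ranges overlapped. HSP90AA1, the stress-inducible HSP90, stood at 318 and overlapped the HSP70-to-HSP90 adaptor STIP1 at 285. AHSA1, which stimulates the HSP90 ATPase, was at 242, the J-domain protein DNAJA1 at 214, the immunophilin FKBP4 at 159 and HSPH1, an HSP110 that exchanges nucleotide on HSP70, at 63.5. In BE(2)-C cells without doxycycline the order from the top was HSPA8 at 1982, HSP90AB1 at 1181, HSP90AA1 at 952, HSPD1 at 781 and HSPE1 at 538. The lower 5 there were AHSA1 at 286, DNAJA1 at 214, STIP1 at 138, FKBP4 at 115 and HSPH1 at 104, of which the last 3 had overlapping neighbours. The models were measured as separate tables, so levels between them were not tested.

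After 24 h of MYCN shutdown, 7 of the 10 genes had fallen per cell number: FKBP4, HSPE1, STIP1, HSP90AB1, HSPA8, AHSA1 and HSPD1. HSP90AA1, HSPH1 and DNAJA1 were not called. Of all tested genes 32.4% were called lower in the same comparison, and the members' median log2 fold change was -0.68 against -0.31 for all genes. On unnormalized FPKM the same 7 genes were called, against 36.4% of all genes, with a median of -0.42 against -0.04.

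**Figure D1:**
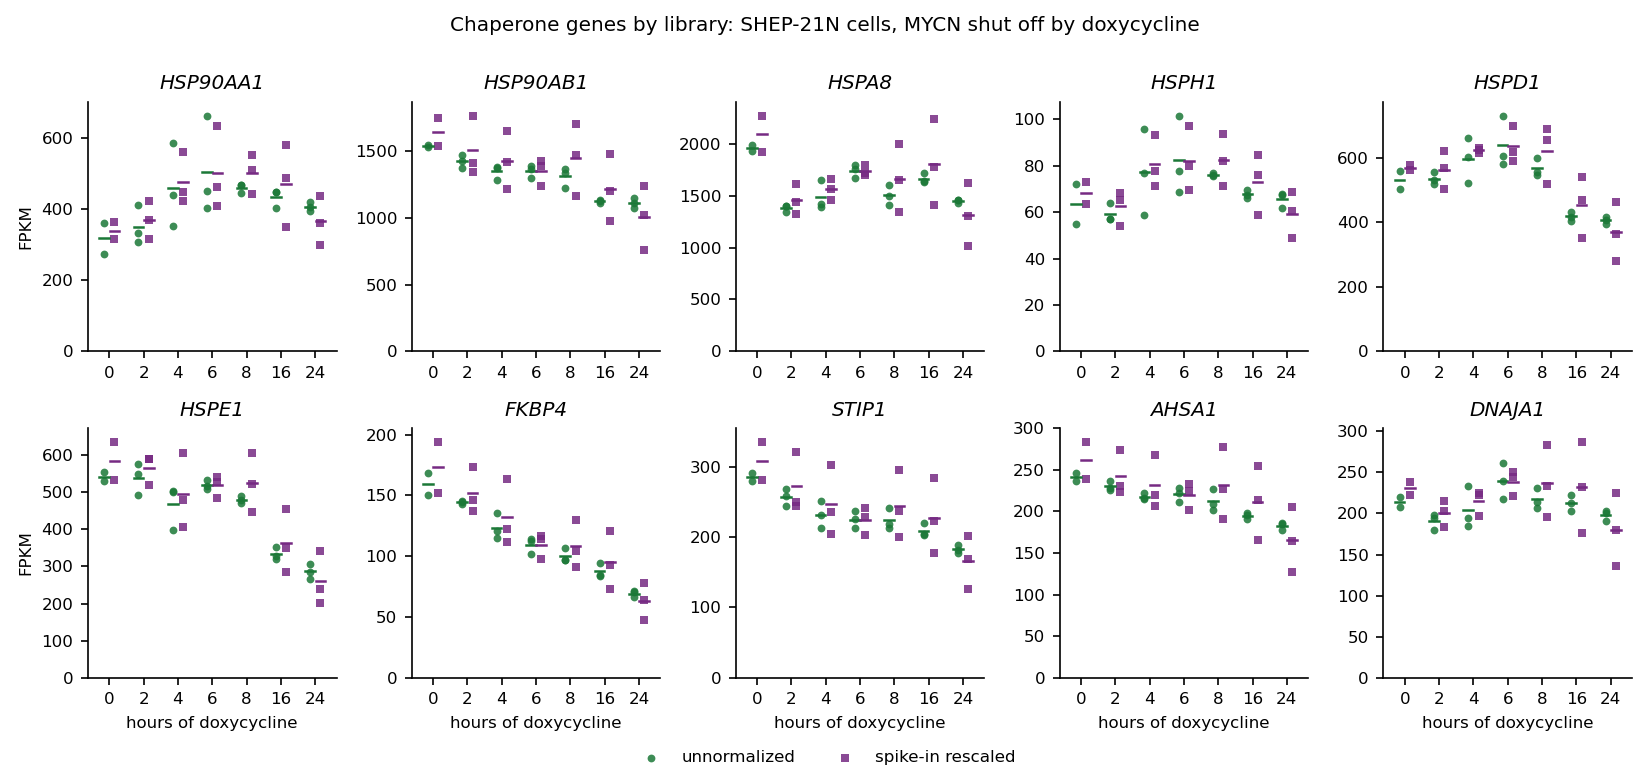
FPKM of each of the 10 genes (vertical axes, from 0) in every SHEP-21N library by hours of doxycycline; circles are unnormalized and squares spike-in rescaled values, bars the group means. FKBP4 has a lower mean at each step, from 150 and 168 at 0 h to between 66.2 and 71.4 unnormalized FPKM at 24 h, whereas HSP90AA1 has its lowest mean at 0 h.

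FKBP4, an immunophilin that docks on HSP90 and is known from steroid receptor complexes, fell most. Its unnormalized FPKM were 150 and 168 at 0 h, 143 to 145 at 2 h, 115 to 136 at 4 h, 102 to 114 at 6 h, 96.7 to 107 at 8 h, 84.1 to 94.1 at 16 h and 66.2 to 71.4 at 24 h. From 2 h on, no library reached the lower 0 h value, and the 24 h group lay below every other. The spike-in values fell from 152 and 194 to 78.1, 63.9 and 47.4 at 24 h, a log2 fold change of -1.46 ± 0.24 (limma, adjusted p = 0.00047). FKBP4 was also the 1 member called on this scale at 16 h (-0.87 ± 0.24, adjusted p = 0.0345), where 3.04% of all genes were called lower.

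STIP1 joins HSP70 to HSP90 and fell from 282 and 335 spike-in FPKM to 202, 169 and 127 at 24 h, by -0.91 ± 0.24 on the log2 scale (limma, adjusted p = 0.0083). AHSA1, the ATPase activator, fell from 239 and 283 to 206, 165 and 127 (-0.67 ± 0.22, adjusted p = 0.026). For both, every 24 h library lay below both controls. On unnormalized FPKM the groups were tighter: STIP1 went from 279 and 291 to between 178 and 189 and AHSA1 from 237 and 246 to between 178 and 185. In between, STIP1 stood at 212 to 251 at 4 h and at 212 to 241 at 8 h, and AHSA1 at 215 to 222 and at 202 to 226, ranges that overlap.

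HSP90AB1 spike-in values were 1535 and 1748 at 0 h and 1233, 1024 and 759 at 24 h (-0.73 ± 0.23, limma, adjusted p = 0.0188). On unnormalized FPKM it stood at 1540 and 1531 at 0 h, 1225 to 1362 at 8 h and 1072 to 1145 at 24 h. The spike-in values of HSPA8 went from 1917 and 2268 to 1621, 1304 and 1011 (-0.69 ± 0.22, adjusted p = 0.0195). The control and 24 h libraries of both did not overlap. HSPH1 spike-in values were 73.1 and 63.6 at 0 h and 68.5, 60.3 and 48.6 at 24 h (-0.22 ± 0.21, adjusted p = 0.41), with overlap. DNAJA1 was at 222 and 239 and then at 225, 179 and 136 (-0.38 ± 0.22, adjusted p = 0.17).

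The mitochondrial partners were lowest at 16 and 24 h. HSPE1, the HSP10 lid, had 531 and 554 unnormalized FPKM at 0 h, 493 to 575 at 2 h, 398 to 504 at 4 h, 508 to 532 at 6 h, 470.5 to 488 at 8 h, 321 to 352 at 16 h and 267 to 308 at 24 h. HSPD1, the HSP60 barrel, had 504 and 559 at 0 h, 518 to 555 at 2 h, 521 to 662 at 4 h, 581 to 730.4 at 6 h, 546 to 599 at 8 h, 406 to 432 at 16 h and 395 to 417 at 24 h. In both genes every library at 16 and 24 h lay below every earlier one; the lowest earlier HSPE1 value was 398, in the 4 h library numbered 0. On the spike-in scale HSPE1 fell from 533 and 635 to 342, 238 and 203 at 24 h (-1.19 ± 0.23, limma, adjusted p = 0.0014), and HSPD1 from 561 and 578 to 464, 364 and 281 (-0.65 ± 0.21, adjusted p = 0.0235). Between 8 and 24 h, a comparison that uses no 0 h library, they were the 2 members called lower on that scale (HSPE1 -1.03 ± 0.21, adjusted p = 0.024; HSPD1 -0.77 ± 0.19, adjusted p = 0.049), against 1.33% of all genes. On unnormalized FPKM 6 members were lower at 24 h than at 8 h, these 2 with HSP90AB1, FKBP4, STIP1 and AHSA1, against 19.2% of all genes.

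The per-cell calls rest on few libraries whose spike-in factors differ. At 24 h the rescaling moved the members by 0.15, -0.16 and -0.49 on the log2 scale in the libraries numbered 0, 1 and 2. Without the 0 h library numbered 2 the count at 24 h was 2 (FKBP4 and HSPE1), without the 24 h library numbered 2 it was 3 (these and STIP1), and with only the 2 groups in the fit it was 3. The unnormalized count at 24 h was 7 with each library left out. FKBP4 at 16 h lost its call on the spike-in scale without either 0 h library or without the 16 h libraries numbered 0 or 2. For 24 h against 8 h, the spike-in calls were 0 without the 8 h libraries numbered 0 or 1 or the 24 h libraries numbered 1 or 2, and 10 without the 24 h library numbered 0.

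**Figure D2:**
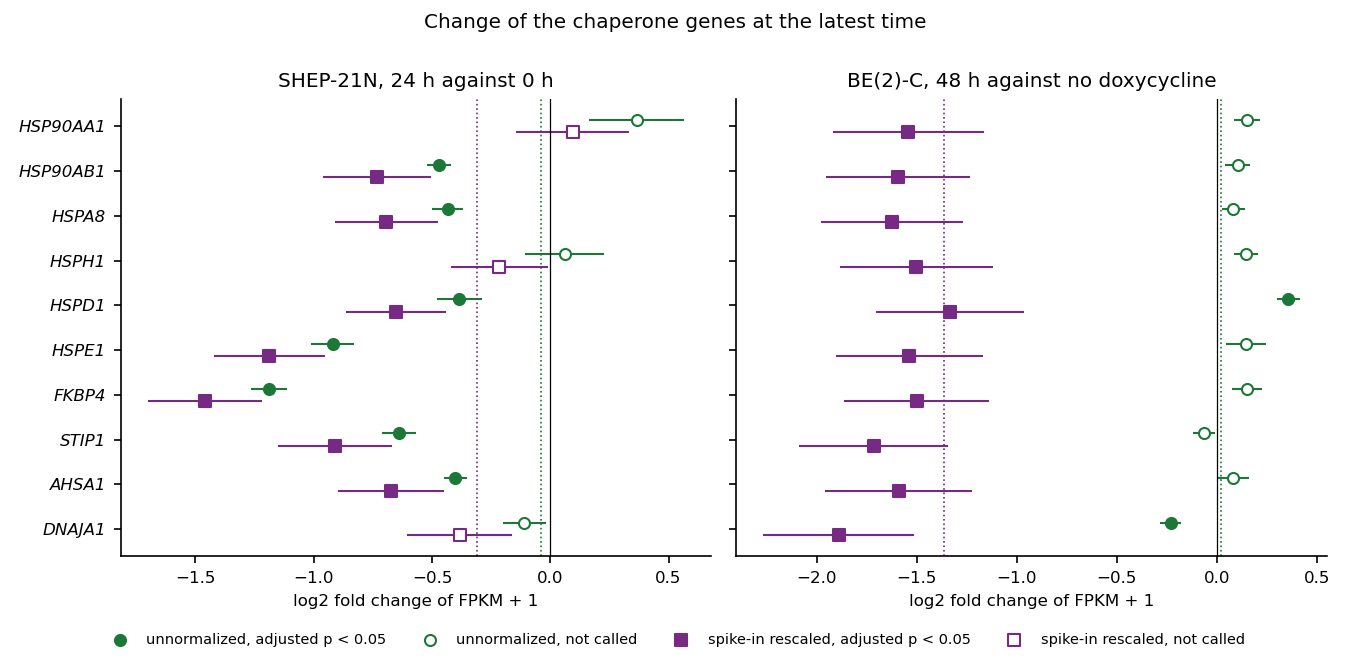
Log2 fold change (horizontal axes, bars 1 standard error) of the 10 genes at the latest time in both models, on unnormalized (circles) and spike-in rescaled FPKM (squares); filled symbols have an adjusted p under 0.05, and dotted lines mark the median of all tested genes on each scale. In SHEP-21N cells FKBP4 and HSPE1 lie farthest to the left on both scales. In BE(2)-C cells 9 of the 10 spike-in values lie below the median of all genes at -1.36, with HSPD1 at -1.34. On unnormalized FPKM the members' median there is 0.13, against 0.02 for all genes.

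Earlier in the course, no member was called on the spike-in scale at 2, 4, 6 or 8 h by limma. At an unadjusted p under 0.05 there were 1, 0, 2 and 2 members, and 0.0506%, 0.0758%, 7.54% and 3.83% of all genes were called lower at these times. Unnormalized FPKM gave more calls. At 2 h HSPA8 alone was called lower, with 0.345% of all genes. HSPA8, FKBP4, STIP1, HSP90AB1 and AHSA1 were called lower at 4 h (18.1% of all genes), at 6 h (29.8%) and at 8 h (29.2%). HSP90AA1 was called higher at 6 and 8 h and HSPD1 at 6 h, where 26.8% and 25% of all genes were called higher. At 16 h these 5 genes with HSPD1 and HSPE1 made 7 members lower, against 27.5% of all genes. The counts at 4 and 6 h turned on single libraries: at 4 h, 5 calls became 1 (HSPA8) without the 0 h library numbered 2, 3 without the 4 h library numbered 1 and 9 without the 4 h library numbered 2. At 6 h, 7 calls became 3 without the 0 h library numbered 2 and 4 without the 6 h library numbered 2.

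HSPA8 was the first member to be called lower, on unnormalized FPKM. Its unnormalized FPKM were 1926 and 1988 at 0 h and 1346, 1400 and 1401 at 2 h (-0.50 ± 0.07, limma, adjusted p = 0.0014), and only 0.742% of tested genes had a lower log2 fold change. At 6 h it stood at 1756, 1668 and 1793, between the 2 groups, and at 8 h at 1495, 1597 and 1414. It was called in each fit that left out 1 library, with an adjusted p of up to 0.049. On the spike-in scale it went from 1917 and 2268 to 1615, 1436 and 1322 (-0.52 ± 0.22), which was not called (adjusted p = 1.00). Among 16 tested genes of a list of heat shock factors and inducible genes, 3 were called lower at 2 h on unnormalized FPKM, beside 0.345% of all genes. They were HSPA1A, HSPA1B and DNAJB1, named after their values were seen. The other 13 were not called, HSPB1, BAG3, HSPB8 and CHORDC1 among them. HSPA1A, an inducible HSP70, went from 35.1 and 39.9 to 19.7, 17.2 and 17.6 (-1.003, adjusted p = 2.41e-06), and stood at 32.0 to 33.5 at 4 h. Its near-identical copy HSPA1B, whose reads cannot be cleanly told apart, went from 45.7 and 51.0 to 25.3, 22.0 and 22.5 (-1.02, adjusted p = 1.1e-06). DNAJB1, a J-domain partner of HSP70, went from 81.0 and 87.1 to between 54.4 and 54.8 (-0.61, adjusted p = 1.41e-05) and back to between 81.3 and 89.2 at 4 h. On the spike-in scale none of the 3 was called (adjusted p = 0.16, 0.14 and 1.00). HSF1, also on the list, stood at 57.0 and 62.6 unnormalized FPKM at 0 h and 51.3 to 59.5 at 2 h and was not called. Any part of HSF1 in these values was not tested.

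HSP90AA1 rose in the unnormalized tables while its paralogue fell. Its unnormalized FPKM were 361 and 275 at 0 h, 307, 411 and 333 at 2 h, 439.7, 585 and 352 at 4 h, 451, 403 and 662 at 6 h, 466, 446 and 467 at 8 h, 402, 448 and 448 at 16 h and 394, 405 and 419 at 24 h. All libraries from 6 h on lay above both controls. The log2 fold change was 0.65 ± 0.20 at 6 h (limma, adjusted p = 0.013), 0.54 ± 0.20 at 8 h (0.033) and 0.36 ± 0.20 at 24 h (0.12). Leaving out number 2 of the 0 h group or number 2 of the 6 h group ended the call at 6 h (adjusted p = 0.179 and 0.0664). At 8 h the adjusted p ran from 0.0251 to 0.307 over fits that left out 1 library, and of these 5 fits only the 1 without the 0 h library numbered 1 kept the call. On the spike-in scale it was 0.54 ± 0.24 at 6 h (adjusted p = 0.14) and 0.09 ± 0.24 at 24 h (0.77).

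A property of the libraries moved with these values. For each library the median log2 deviation of the 2745 GC-poorest genes was set against that of the 2745 GC-richest (GC content as the median over a gene's GENCODE 29 transcripts, found for 92.5% of tested genes). This index was -0.23 and -0.50 at 0 h and -0.31 to -0.12 at 2 h, and every library from 6 h on lay above these, between -0.09 and 0.50. The 2 highest libraries, number 1 at 4 h (0.34) and number 2 at 6 h (0.50), also held the highest HSP90AA1 (585 and 662) and the highest HSPH1 (95.8 and 101.5) and HSPD1 (662 and 730.4). These 2 libraries held the lowest FKBP4 of their time points (115 and 102) and the lowest STIP1 (212 in each). HSPH1 and DNAJA1, with 40% and 41.7% GC, are the GC-poorest members, and STIP1 with 52.8% and FKBP4 with 51.1% the GC-richest. With a trend on GC content and length taken out of each library, chosen after the data were seen, HSP90AA1 at 6 h was at 0.48 (adjusted p = 0.023) and at 8 h at 0.41 (0.043), HSPD1 at 6 h at 0.18 (0.083), and HSPH1 at 24 h at -0.18 (0.094) in place of 0.06. All 7 falls at 24 h kept their calls that way, FKBP4 at -0.96, HSPE1 at -0.81 and STIP1 at -0.53, and DNAJA1 was called with them (-0.29, adjusted p = 0.00036). HSPA8 at 2 h was at -0.56 (adjusted p = 1.49e-05). Whether the index reflects RNA quality, library preparation or the cells was not tested.

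**Figure D3:**
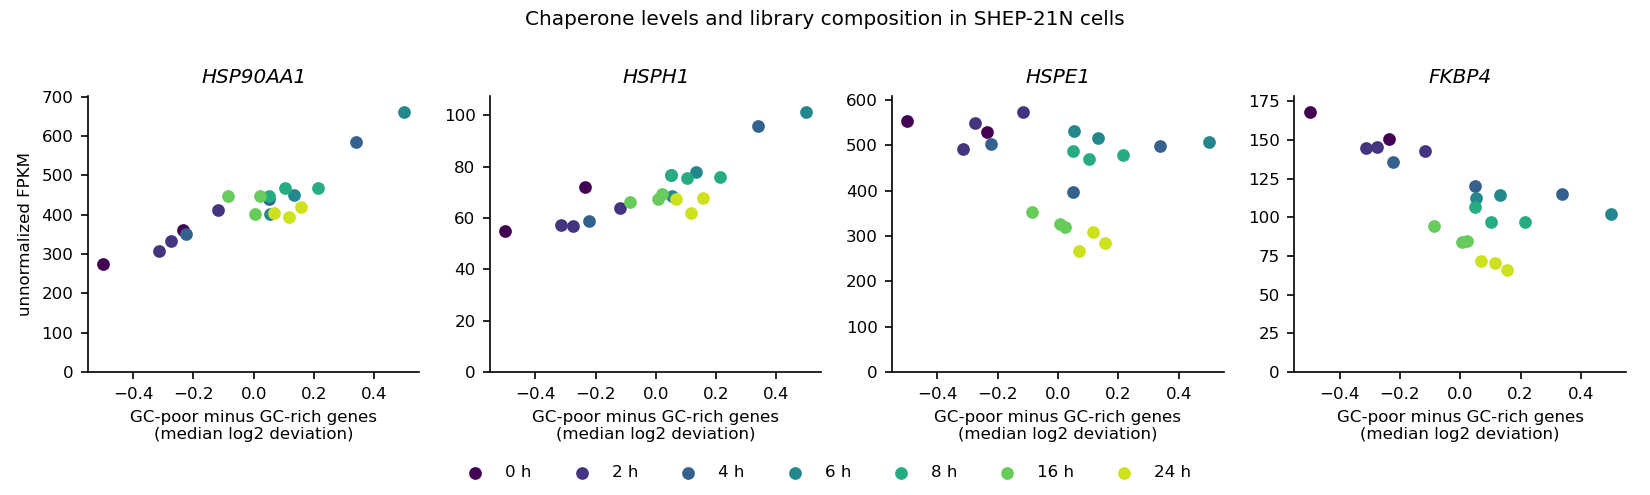
Unnormalized FPKM of HSP90AA1, HSPH1, HSPE1 and FKBP4 (vertical axes, from 0) against the composition index of each SHEP-21N library, the median log2 deviation of GC-poor minus GC-rich genes (horizontal axes), coloured by hours of doxycycline. HSP90AA1 and HSPH1 climb along the index, with the 2 highest libraries at 0.34 and 0.50. FKBP4 is lowest within its time point in those same libraries (115 and 102), and HSPE1 separates by time, its 16 and 24 h libraries between 267 and 352.

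Ratios within a library cancel the scaling of the library, though not a trend with its composition. HSPD1 to HSPE1, barrel to lid, stood at 1.05 and 0.911 at 0 h and at 1.36, 1.53 and 1.39 at 24 h in SHEP-21N cells, without overlap. As deviations from group means over 20 libraries, HSPD1 correlated with the composition index (Pearson's r = 0.939) and HSPE1 did not (-0.04). The index was -0.23 and -0.50 at 0 h and 0.07 to 0.16 at 24 h, and its part in this ratio was not tested. The log2 ratio was higher by 0.54 (exact permutation test, two-sided, p = 0.2, the smallest that 3 against 2 libraries can give; adjusted over 4 ratio tests 0.267), so this design cannot pass 0.05. The ratio of the HSP90 paralogues, HSP90AA1 to HSP90AB1, was 0.234 and 0.180 at 0 h and 0.356, 0.354 and 0.391 at 24 h, also without overlap. Its log2 difference was 0.84 (exact permutation test, two-sided, p = 0.2; adjusted 0.267). In the library with the highest composition index, number 2 at 6 h, this ratio reached 0.512. As deviations from group means over 20 libraries, HSP90AA1 correlated with the index at 0.944 and HSP90AB1 at -0.589 (Pearson's r). The part of the index in the HSP90 ratio was not tested. The summed share of the 10 genes in all FPKM was 0.661% and 0.615% at 0 h, 0.545% to 0.568% at 2 h and 0.623% to 0.650% at 24 h (24 h against 0 h, exact permutation test, p = 1). The divisor of this share moved as well. All genes summed to 891502 and 1082800 spike-in FPKM at 0 h and to 783128, 606464 and 477241 at 24 h. A level share therefore does not mean that the members' own levels held.

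**Figure D4:**
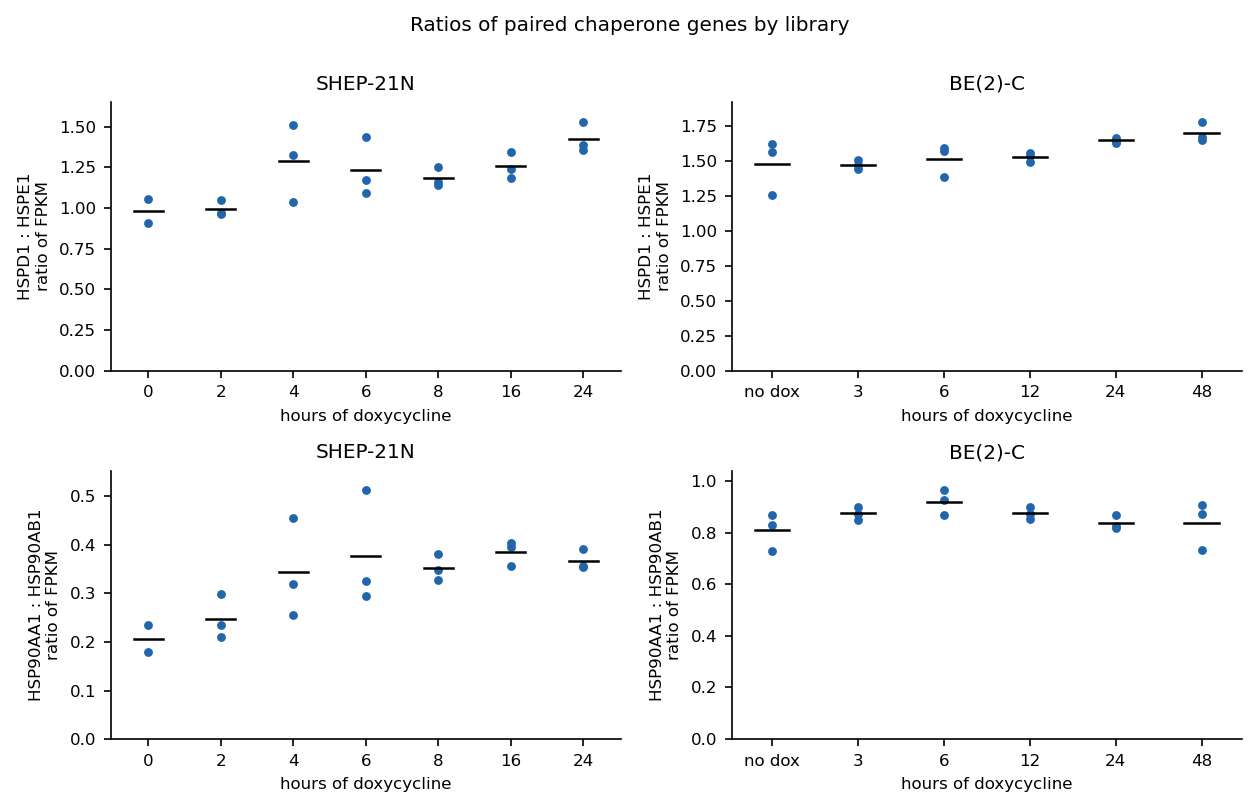
Ratio of unnormalized FPKM of HSPD1 to HSPE1 (top) and HSP90AA1 to HSP90AB1 (bottom), vertical axes from 0, in every library of both models by hours of doxycycline; bars are group means. In SHEP-21N cells the HSPD1 to HSPE1 ratio lies at 1.05 or below at 0 h and at 1.36 or above at 24 h, and HSP90AA1 stays below HSP90AB1 in every library of both models.

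Other genes of these pathways, from 4 lists, show where the members stand among their partners at 24 h of MYCN shutdown. The composition index moved with this comparison too, and its part in the list values was not tested. The lists, like the members, were chosen with earlier results of these data known. Of 22 tested HSP90 co-chaperones outside the members, 15 fell and none rose on the spike-in scale, with a median of -0.70 against -0.31 for all genes; on unnormalized FPKM 17 fell and 1 rose. Of all tested genes 32.4% were called lower on the spike-in scale and 36.4% on unnormalized FPKM. The shares called higher at 24 h are not given here, so the rises on the 4 lists have no background beside them. The smallest adjusted p were those of TELO2, which brings kinases of the PI3-kinase-like family to HSP90 (46.4 to 19.3 spike-in FPKM, -1.22 ± 0.23, limma, adjusted p = 0.00093), and TOMM34, an adaptor of HSP70 and HSP90 (60.9 to 29.5, -1.04 ± 0.22, adjusted p = 0.002). RPAP3 was the 1 named on the positive side (8.45 to 10.1, 0.22 ± 0.18, adjusted p = 0.34). It was called higher on unnormalized FPKM (0.50, limma, adjusted p = 0.0058).

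Of 19 tested mitochondrial chaperones and proteases, 14 fell and none rose on the spike-in scale, with a median of -1.08; on unnormalized FPKM 15 fell and 2 rose, beside the same 32.4% and 36.4% of all genes. PAM16, part of the motor that pulls proteins into the matrix, fell from 136 to 49.99 spike-in FPKM (-1.45 ± 0.23, limma, adjusted p = 0.00039). CLPB, a disaggregase, fell from 19.8 to 8.13 (-1.21 ± 0.20, adjusted p = 0.0005). DNAJC15 (3.69 to 4.87, adjusted p = 0.16) and the protease YME1L1 (40.8 to 52.0, adjusted p = 0.22) were not called on the spike-in scale. Both were called higher on unnormalized FPKM (0.59, limma, adjusted p = 5.47e-05, and 0.60, adjusted p = 0.0021). On the spike-in scale HSPD1 at -0.65 lies above the median of this list and HSPE1 at -1.19 below it.

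Of 23 tested genes of the cytosolic HSP70 system, 7 fell and 1 rose on the spike-in scale, with a median of -0.31 beside -0.31 for all genes; on unnormalized FPKM 10 fell and 5 rose. The 7 lower genes are a share near the 32.4% of all genes. BAG1, a nucleotide exchange factor of HSP70, fell from 21.1 to 9.13 (-1.15 ± 0.21, limma, adjusted p = 0.000845) and SGTA, a co-chaperone with tetratricopeptide repeats, from 122 to 58.6 (-1.06 ± 0.25, adjusted p = 0.0038). DNAJB14, a membrane-bound J-domain protein, rose from 4.37 to 6.25 (0.43 ± 0.16, adjusted p = 0.036), whereas HSPA13 (11.6 to 13.3) was not called (adjusted p = 0.38). On unnormalized FPKM both were called higher (0.72, limma, adjusted p = 0.00053, and 0.46, adjusted p = 0.0099). Of the 16 tested heat shock factors and inducible genes 4 fell and none rose on the spike-in scale (median -0.34), and 6 fell and 1 rose on unnormalized FPKM, shares not above the 32.4% and near the 36.4% of all genes. HSF1 fell from 65.3 to 29.1 spike-in FPKM (-1.15 ± 0.23, limma, adjusted p = 0.0015) and the small heat shock protein HSPB8 from 38.1 to 18.4 (-1.03 ± 0.23, adjusted p = 0.0028). DNAJB4 stood at 15.2 and 20.3 (adjusted p = 0.061) and was called higher on unnormalized FPKM (0.67, adjusted p = 0.00014). At 6 h it was called higher on the spike-in scale (0.95, adjusted p = 0.0025) and on unnormalized FPKM (1.09, adjusted p = 4.56e-06).

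In SHEP-21N cells the mean course of the 10 members over 7 time points, relative to the library median, was matched best by TCP1, a subunit of the cytosolic chaperonin CCT (Pearson's r = 0.988), followed by UBE2B (0.984), SNORA61 (0.982), CYB5B (0.981) and FNTA (0.978). In BE(2)-C cells, over 6 time points, the closest were GNL2 and HAT1 (both 0.988), PA2G4 and STT3A (both 0.982) and CHEK2 (0.981). These are descriptions of few points that share their libraries. The courses are log2(spike-in FPKM + 1) less the library median. The added 1 weighs more on low genes, so part of the rescaling stays in the courses. Its part in the likeness was not tested. The members themselves followed their own mean unevenly in SHEP-21N cells, from 0.909 for HSPD1 and 0.903 for HSPE1 down to 0.134 for HSP90AA1.

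In BE(2)-C cells with the TWIST1 hairpin all 10 members were called lower per cell number at 48 h, with nearly everything else: 93.3% of all tested genes were called lower, and the members' median was -1.57 against -1.36. This count therefore says nothing particular to chaperones. On unnormalized FPKM the members' median was 0.13 against 0.02 for all genes. With 1 added before the log, a rescaling shared by all genes shows less in low genes than in high ones. The spike-in medians are therefore not a like comparison. The members' log2 fold changes on the spike-in scale ran from -1.34 (HSPD1) to -1.89 (DNAJA1). Spike-in totals in the unnormalized table ran from 57913 to 140361 FPKM at 48 h and from 21429 to 36863 without doxycycline, which is the size of the rescaling. At 3, 6, 12 and 24 h no member was called by limma on the spike-in scale and none had an unadjusted p under 0.05, with 0.0175%, 0.0175%, 0.0262% and 0.586% of all genes called lower. Against 24 h, again all 10 were lower at 48 h, with 92.3% of all genes.

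**Figure D5:**
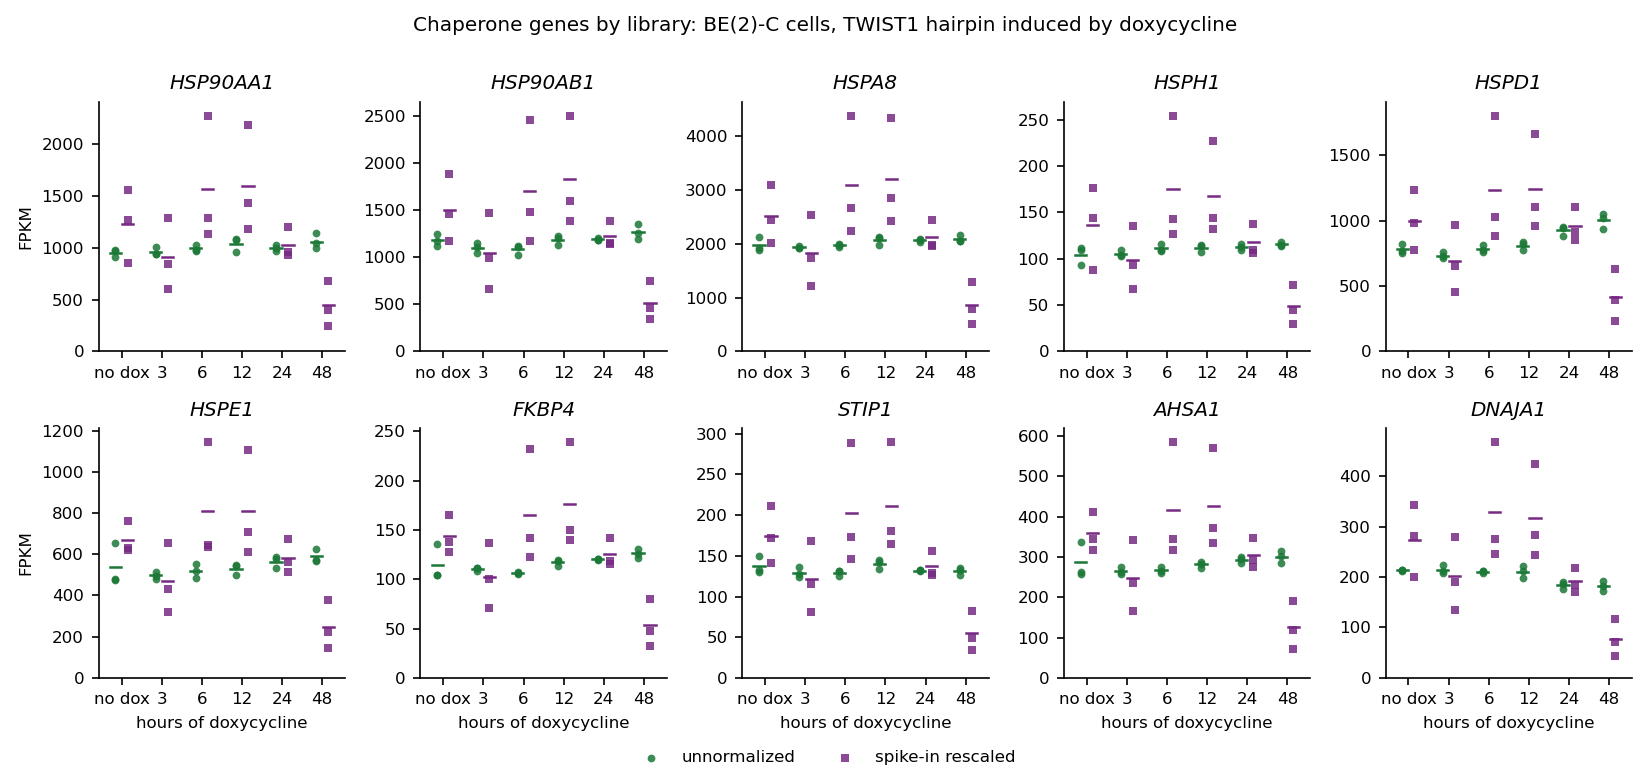
FPKM of each of the 10 genes (vertical axes, from 0) in every BE(2)-C library by hours of doxycycline; circles are unnormalized and squares spike-in rescaled values, bars the group means. The squares at 48 h lie low for all genes, whereas the circles stay level apart from HSPD1, between 753 and 822 without doxycycline and between 938 and 1047 at 48 h, and DNAJA1.

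Relative to the rest of the library, 2 members moved in opposite directions. HSPD1 unnormalized FPKM were 822, 753 and 769 without doxycycline, 776 to 833 at 12 h, 885, 953 and 945 at 24 h and 1019.8, 1047 and 938 at 48 h. The 24 and 48 h libraries all lay above those without doxycycline (24 h 0.25 ± 0.06, limma, adjusted p = 0.00595; 48 h 0.36 ± 0.06, adjusted p = 0.00018). DNAJA1, which primes HSP70 for its clients, stood between 213 and 215 without doxycycline, at 176, 190.1 and 186 at 24 h and at 181, 193 and 173 at 48 h, with no overlap (24 h -0.22 ± 0.05, adjusted p = 0.00808; 48 h -0.23 ± 0.05, adjusted p = 0.003). At 24 h 9.55% of all genes were called higher and 13.6% lower on this scale, and at 48 h 18.1% and 21.3%. Both calls held with each library left out. With spike-in values centred on the library median, HSPD1 was not called (24 h 0.21, limma, adjusted p = 0.24, and 48 h 0.09, adjusted p = 0.548). DNAJA1 was then not called at 24 h (-0.24, adjusted p = 0.109) but was at 48 h (-0.47, adjusted p = 0.00131), with STIP1. Centred values are log2(spike-in FPKM + 1) less the library median. The added 1 weighs more on low genes, so centring does not fully cancel the rescaling, which was largest at 48 h. On log2(unnormalized FPKM + 1) the library medians were 3.67 to 3.76 without doxycycline and 3.72 at 48 h. How far this accounts for the lost calls was not tested.

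The other 8 members were not called at 24 or 48 h on unnormalized FPKM. No member was called lower at 3, 6 or 12 h, where the shares of all genes were 0.0175%, 0.472% and 3.33%, and none had an unadjusted p under 0.05. None differed between 24 and 48 h either (1.84% of all genes lower; no unadjusted p under 0.05). The library without doxycycline numbered 1 stood apart: it had HSPE1 at 656 against 482 and 475, AHSA1 at 338 against 263 and 258, and FKBP4 at 135 against 104 and 104. Its composition index was -0.64, and those of the other 17 libraries lay between -0.09 and 0.14. Without this library 7 members were called at 48 h, HSPE1 (0.30), FKBP4 (0.27), AHSA1 (0.20), HSPA8 (0.14) and HSP90AB1 (0.14) higher in addition, and 6 at 24 h. The share of all genes called in that fit is not given here, so these counts say nothing particular to chaperones. With the GC and length trend removed and this library kept, the calls at 48 h were HSPD1 (0.29) and DNAJA1 (-0.32) alone.

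The ratio of HSPD1 to HSPE1 in BE(2)-C cells was 1.25, 1.56 and 1.62 without doxycycline and 1.78, 1.67 and 1.65 at 48 h. Its log2 value was higher by 0.21 (exact permutation test, two-sided, p = 0.1, the smallest that 3 against 3 can give; adjusted 0.267), and the lowest of these values, 1.25, belongs to the library that stood apart, without which the difference was 0.10. The ratio of HSP90AA1 to HSP90AB1 was 0.728, 0.870 and 0.828 against 0.874, 0.906 and 0.732 (difference 0.05 on the log2 scale, exact permutation test, p = 0.5), and its sign turned without that library (-0.03) and without the 48 h library numbered 1 (-0.01). The summed share of the members in all FPKM was 0.651%, 0.819% and 0.776% without doxycycline and 0.870%, 0.919% and 0.880% at 48 h (exact permutation test, two-sided, p = 0.1; adjusted over 2 tests 0.2). The difference of 0.141 percentage points was 0.0922 without the library that stood apart. That library had the lowest share. Yet it held the most HSPA8 (2132 unnormalized FPKM against 1879 and 1934) and HSP90AB1 (1246 against 1122 and 1174) of its group. HSP90AA1, HSPH1 and DNAJA1 were lowest there. The share depends on the total of all genes as well as on the members, and the part of that total in the difference was not tested.

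On the pathway lists, 15 of 16 inducible genes, 22 of 22 HSP90 co-chaperones, 24 of 24 HSP70 system genes and 18 of 18 mitochondrial genes were called lower per cell number at 48 h in BE(2)-C cells, beside 93.3% of all genes. On unnormalized FPKM the inducible genes had 4 lower and 2 higher, the HSP90 co-chaperones 4 and 2, the HSP70 system 8 and 3 and the mitochondrial genes 3 and 3, beside 21.3% lower and 18.1% higher over all genes. TOMM34, which fell in SHEP-21N cells, was higher there (59.3 to 73.6 unnormalized FPKM, 0.32, limma, adjusted p = 0.0028), CLPB likewise (30.2 to 38.6, 0.38, adjusted p = 0.042). Neither was called on centred spike-in values (limma, adjusted p = 0.374 and 0.16), in which the rescaling is not fully cancelled. SGTA (106 to 77.2, -0.43, adjusted p = 0.0016) and BAG1 (18.4 to 13.7, -0.37, adjusted p = 0.015) were lower. PAM16 at -0.21, TELO2 at -0.17, HSF1 at -0.13, YME1L1 at 0.12, RPAP3 at 0.12, DNAJB4 at 0.25, HSPA13 at 0.30 and DNAJB14 at 0.46 were not called on that scale. Whether any change differs between the models was not tested, since the agents, targets and times differ.

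Many of these genes have processed pseudogenes close to their own sequence, among them HSP90AA1, HSP90AB1, HSPA8, HSPD1 and HSPE1. No source used here says how reads were shared among such copies, so the levels of these genes are less certain than their changes between libraries.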

How the data were processed

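Total RNA of counted cells with ERCC spike-ins was made into stranded polyA libraries, per the labels' protocols. The submitters' processing notes name HISAT, Cufflinks 2.0.0 and hg19. For each model the authors deposited 1 table of unnormalized FPKM and 1 of FPKM rescaled by spike-in; no source used here describes that rescaling. Of 49 listed samples 38 have a column and were analysed; the 11 others (BE(2)-C with DMSO or JQ1) are not analysed here. A column's name gave its group, and its number only tells libraries apart.

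Genes with a mean of at least 1 unnormalized FPKM were tested with limma 3.58.1 in R 4.3.3 on log2(spike-in FPKM + 1), with an intensity trend and all groups of a model in 1 fit; adding 1 understates changes of low genes. All comparisons with the first time point share its libraries. Ratios were tested with scipy 1.17.1 in Python 3.11.15, and tables and figures used numpy 2.4.6, pandas 2.3.3 and matplotlib 3.10.9. The fit was tested on simulated data. FPKM carry no absolute depth, so counting error is unknown and the spread between libraries stands in for it.

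The members and lists were chosen with earlier results of these data known. Of 86 listed pathway genes 85 are in the tables. Named were all members, the targeted genes, from each list the 2 genes in each direction with the smallest adjusted p at 24 h in SHEP-21N cells with their values in BE(2)-C cells, and the 5 genes most like the members' mean course. Alternatives were unnormalized and median-centred values, a pseudocount of 0.1, no filter or a minimum of 5 FPKM, a fit of only the groups compared, no trend, a replicate block and leaving out each library. The removal of a GC and length trend, and the block and left-out libraries on unnormalized FPKM, were chosen after the data were seen.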

Additional observations from a re-analysis of the deposited data

How the results depend on the processing

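Read against the count of members called on the spike-in scale, unnormalized FPKM gave 1, 5, 7, 6 and 7 in place of 0, 0, 0, 0 and 1 at 2, 4, 6, 8 and 16 h in SHEP-21N cells, and values centred on the library median gave 1, 3, 5, 4 and 7. For 24 h against 8 h both gave 6 in place of 2. In BE(2)-C cells unnormalized FPKM gave 2 in place of 0 at 24 h and 2 in place of 10 at 48 h, centred values 2 in place of 10 at 48 h, and both gave 0 in place of 10 for 48 h against 24 h. With only the groups compared in the fit the count was 1 at 6 h and 1 at 8 h in place of 0, 3 in place of 7 at 24 h and 0 in place of 2 for 24 h against 8 h. Without a filter on low values it was 0 in place of 1 at 16 h and 1 in place of 2 for 24 h against 8 h. With the GC and length trend removed 2 in place of 1 unnormalized calls were made at 2 h. The cause of these differences was not tested. Apart from unnormalized FPKM with all libraries, no share of all genes is set beside the counts of these alternative fits, here or above. Those counts show how the members' calls moved with the processing, not how the members stand among all genes.

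Libraries with the same number did not deviate together (median correlation of deviations over genes -0.0208 in SHEP-21N and 0.00872 in BE(2)-C cells), so the numbers were not taken as pairs. With a replicate block the spike-in count was 0 in place of 1 at 16 h and 0 in place of 2 for 24 h against 8 h in SHEP-21N cells, and 7 at 24 h.

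With 1 library left out the spike-in count ran from 0 to 2 at 16 h, 2 to 8 at 24 h and 0 to 10 for 24 h against 8 h, and stayed at 0 at the other SHEP-21N times; in BE(2)-C cells it stayed at 10 at 48 h in both comparisons and at 0 before. The unnormalized count ran from 1 to 9 at 4 h, 3 to 8 at 6 h, 4 to 6 at 8 h and 6 to 7 at 16 h in SHEP-21N cells. In BE(2)-C cells it ran from 0 to 2 at 12 h, 2 to 6 at 24 h and 2 to 7 at 48 h. The 24 h minus 0 h difference in the members' share ran from -0.0234 to 0.0221 percentage points around -0.000614. The 48 h minus control difference of the log2 ratio of HSP90AA1 to HSP90AB1 ran from -0.0251 to 0.142. Where a group was left with 1 library, that library was assumed to vary like the others.

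Single values that turned sign were small in SHEP-21N cells at 24 h: HSPH1 at -0.22 was 0.061 unnormalized and 0.085 centred. Its unnormalized value was -0.18 with the GC and length trend removed and ran from -0.13 to 0.25 with 1 library left out. HSP90AA1 at 0.09 ran from -0.044 to 0.23 with 1 library left out. At 48 h in BE(2)-C cells the falls turned on unnormalized FPKM to 0.15 for HSP90AA1, 0.10 for HSP90AB1, 0.082 for HSPA8, 0.15 for HSPH1, 0.36 for HSPD1, 0.15 for HSPE1, 0.15 for FKBP4 and 0.079 for AHSA1, and HSPD1 was at 0.086 with centred values.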
